A study of Mus musculus with 8 samples.

Results

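The comparison described here sets a stable IgM transfectant of A20 cells against untransfected A20 cells, as the control for transfection in a study of A20 cells carrying membrane IgE. It uses 4 of the 8 arrays of the series, 2 of the IgM line and 2 of the untransfected line, chosen by their titles. The other 4 arrays belong to IgE clones 18 and 41, and they entered the fit as a source of the spread between arrays of a line. A20 is a mouse B lymphoma line of mature B cell type that makes an IgG of its own. The labels give no further allele, agent or drug selection for any of the lines, and all lines were grown in the same medium with serum and beta-mercaptoethanol. The series title and design name the IgM as membrane IgM. Whether the IgM line is 1 clone, and the sequences of the transfected chains, are not given in the sources used here. No label states whether a line's 2 arrays hold RNA of 2 cultures or of 1, so the p-values rest on the spread between arrays, and that spread may be technical.

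Total RNA was hybridised with 1 dye to Agilent mouse arrays of 60-base probes. Values below are scaled log2 signals, the log2 of a probe's processed intensity minus the log2 of that array's 75th percentile, so a value of 0 is the brightness of a probe at that percentile. A gene was represented by its brightest probe, and 19973 genes had a probe that passed the filter, which asked for signal well above background on each array of 1 line or more. Genes or probes were called at an adjusted p under 0.05 (limma, Benjamini-Hochberg over all features tested) and a difference of at least 2-fold. The 75th percentile was 664 and 590 intensity units on the untransfected arrays and 656 and 584 on the IgM arrays, and 51.1% to 58.9% of spots on these 4 arrays were well above background. The B cell markers fixed as a list were detected on at least 1 of the 4 arrays for 14 of 14 genes, and their summed linear signal was 614 and 531 on the untransfected arrays and 625 and 589 on the IgM arrays.

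An antibody is built from 2 heavy and 2 light chains. Each chain has a variable (V) region, encoded by 1 of many V gene segments joined to shorter segments during B cell development, and a constant region that sets the class: mu for IgM, gamma for IgG, epsilon for IgE. Heavy chain segments lie on mouse chromosome 12, kappa light chain segments on chromosome 6 and lambda segments on chromosome 16. A mature B cell normally transcribes 1 productive heavy chain rearrangement, and V segments of a family resemble each other closely, so a transcript from 1 segment can bind probes designed for its relatives. On the cell surface the antibody pairs with CD79A and CD79B, which carry the signal into the cell, and the whole is the B cell receptor. Transfected heavy and light chain genes can bring V regions that the host cell did not use.

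Probes for V regions held a block of large differences between the lines, and 6 of them are printed here with their positions on mm9, since the values that follow turn on what these probes match. They are in the order heavy chain (the first 5) and kappa chain (the last). Capitals mark TATTACTGT, 9 bases that encode the residues Tyr-Tyr-Cys near the end of many V segments. On either strand this string was present in 80 of all 55681 probes (0.144%), in 7 of 96 heavy V probes (7.29%) and in 19 of 92 kappa V probes (20.7%).
ENSMUST00000103535, chr12:116745936-116745995, minus strand: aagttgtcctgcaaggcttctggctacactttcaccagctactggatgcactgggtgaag
Ighv14-3 (ENSMUST00000103469), chr12:115298056-115298115, minus strand: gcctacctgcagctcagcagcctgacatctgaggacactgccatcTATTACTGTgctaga
ENSMUST00000170551, chr12:117100209-117100268, minus strand: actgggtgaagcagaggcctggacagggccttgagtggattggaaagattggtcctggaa
LOC100505009, chr12:117247846-117247905, minus strand: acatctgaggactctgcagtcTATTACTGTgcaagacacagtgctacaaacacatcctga
ENSMUST00000103445, chr12:114849459-114849518, minus strand: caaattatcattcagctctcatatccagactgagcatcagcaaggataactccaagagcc
Igkv12-46 (ENSMUST00000103365), chr6:69714517-69714576, minus strand: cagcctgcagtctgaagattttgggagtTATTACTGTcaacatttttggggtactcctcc
The motif was in 4 of the 34 heavy V probes called higher in IgM cells (11.8%) and in 2 of the 5 kappa V probes called higher (40%). These shares describe the probes, and no match says only that the letters are not in that 60-base window.

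IgM cells had far more signal than untransfected cells on probes for heavy chain V regions. Of 96 such probes on the array, 40 passed the filter, 34 of these were called higher in IgM cells (85%) and 0 lower, where 1.14% of all 29140 probes tested were called higher and 1.82% were called in either direction. The differences of the 34 ran from 2.97 to 7.73 on the log2 scale, with adjusted p (limma) from 0.000364 to 0.0285. The filter itself bears on this count, because 10 of the 40 probes were kept only through the IgM arrays, which favours a difference. Of these 10, 8 were called higher. Of the 30 kept through another line as well, 26 were called higher, and of the 14 well above background on both untransfected arrays, 10 were. For 13 of the 34 the untransfected line was not well above background on either array, and their differences were at least 1.94-fold to at least 73.6-fold. For the 10 measured on all 4 arrays the difference was 12.3-fold to 121-fold.

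The probe of ENSMUST00000103535 read -3.30 and -5.12 in untransfected cells and 2.70 and 3.60 in IgM cells, a difference of 7.36 ± 0.76 (SE, n = 2 arrays a line, adjusted p = 0.00647, limma). The probe of Ighv14-3 read -2.69 and -2.29 against 2.54 and 3.67, a difference of 5.60 ± 0.45 (adjusted p = 0.00232, limma). The probe of ENSMUST00000170551 read -3.75 and -4.57 against 2.20 and 3.31, a difference of 6.92 ± 0.66. In all 3 both IgM arrays lay above the brightness of the 75th percentile and both untransfected arrays lay far below it, with no overlap. The probe of LOC100505009, whose window ends beyond the Tyr-Tyr-Cys motif, read -3.69 and -3.73 against 2.04 and 3.26, a difference of 6.36 ± 0.60. IgM replicate 2 was the higher of the 2 IgM arrays on each of these 4 probes.

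Most of the 34 heavy V probes resembled each other in sequence. For 27 of them another called probe shared at least 80% of bases over an ungapped overlap of at least 40 bases, with a median best identity of 89.1%. Of the 6 heavy V probes that passed the filter and were not called, 2 had such a match. So the 34 probes are not 34 independent measurements, and the number of different V regions behind them was not tested. In the fit with 1 probe a gene, 38 V-region genes were called, each higher. With the V-region probes left out, an alternative chosen after seeing the data, 206 genes were called higher and 162 lower in IgM cells.

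The IgE lines, read side by side, divided the 34 heavy V probes, a grouping made after their values were seen. The cut was whether the clone 18 mean lay over 1 log2 unit below the IgM mean. For 26 probes IgE clone 18 lay 3.13 to 5.81 below the IgM line on the log2 scale. The medians of these 26 were -4.37 and -4.83 on the untransfected arrays, 1.00 and 2.11 on the IgM arrays, -3.61 and -3.53 in clone 18, and -3.86 and -2.54 in clone 41. The medians of these 26 were thus high on the IgM arrays and low on the other 6. The call and the cut favour this for the untransfected and clone 18 arrays, while the clone 41 values had no part in the grouping. Not each probe was bright in IgM cells, where ENSMUST00000103494 read -4.38 and -3.15. They lay, where placed (25 probes), between positions 115298056 and 117247905 of chromosome 12.

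For the other 8 heavy V probes IgE clone 18 was close to the IgM line, and the IgM mean minus the clone 18 mean ran from -0.82 to 0.76. Their medians were -5.10 and -7.01 in untransfected cells, 0.40 and 0.20 in IgM cells, 0.30 and 0.19 in clone 18, and -1.52 and -0.61 in clone 41. On 4 of the 8 the IgM mean exceeded 2 and all 3 transfected lines were well above the untransfected line. The other 4 were dim, with IgM means of -3.88 to -1.62, and on 1 of these (ENSMUST00000103454) clone 41 was not well above background on either array. Clone 41 lay 0.54 to 2.14 below the IgM line over the 8. ENSMUST00000103445 is an example, with -3.24 and -6.97 in untransfected cells, 2.63 and 2.29 in IgM cells, 2.49 and 2.61 in clone 18, and 0.70 and 1.46 in clone 41. IgM cells exceeded untransfected cells by 7.56 ± 1.05 on this probe (adjusted p = 0.0202, limma). By sequence, the best match among the called probes lay within the same set for 26 of the 26 (median best identity 88.2% within the set and 46.1% to the other set) and for 5 of the 8 (89.3% and 59.5%). The set of 26 offers more candidates than the set of 8, which by number alone favours a best match within the 26. These shares were not tested.

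The 2 untransfected arrays parted on 4 of these 8 probes. On the 4 whose IgM mean exceeded 2, untransfected replicate 1 read -3.41 to -3.22 and was well above background on all 4, while replicate 2 read -7.22 to -6.84 and was well above background on none. On the other 4 neither untransfected array was well above background, and they differed by 0.11 to 0.15. The median gap between the 2 untransfected arrays on the first 4 was 3.74, a direction also seen on the Igkv12-46 probe below. Over the 206 genes called higher outside V regions the median gap was 0.07, with replicate 1 above replicate 2 in 119 of them, at least 2-fold above in 14 and at least 2-fold below in 10. Replicate 1 still lay a median of 5.70 below the IgM mean on those 4 probes.

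**Figure D1:**
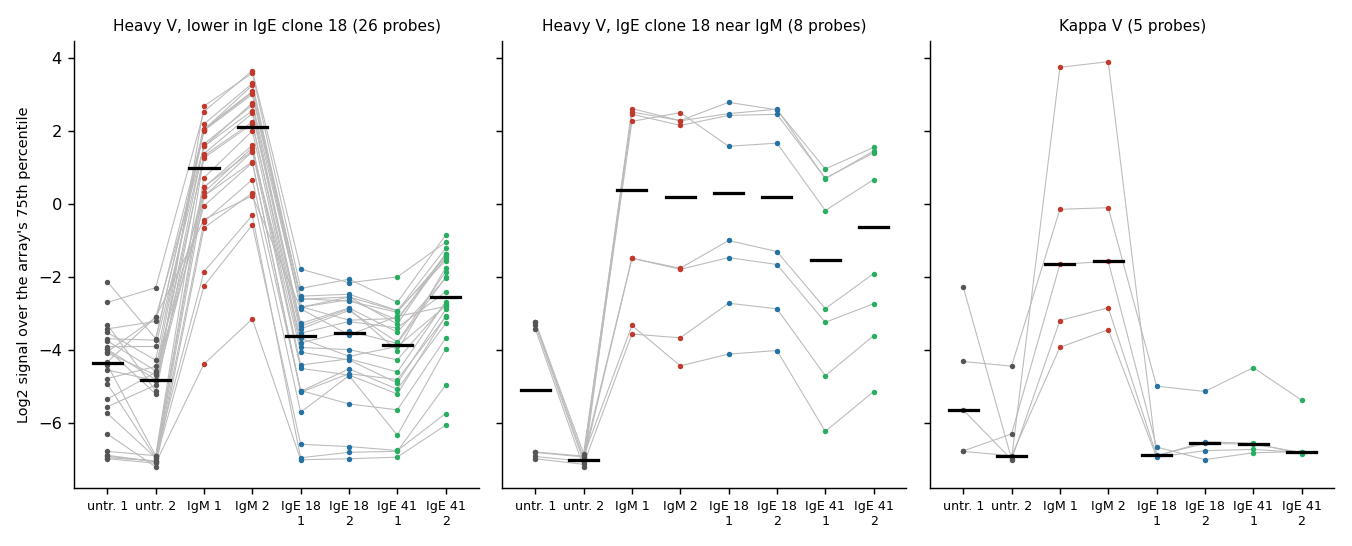
Scaled log2 signal (vertical axis) of the 39 V-region probes called higher in IgM cells on each of the 8 arrays (horizontal axis); grey lines join the values of 1 probe, points are coloured by line and black bars are medians. The 26 heavy V probes at the left were higher on the IgM arrays than on all other arrays. The 8 in the middle were close to the IgM arrays in IgE clone 18, which the grouping fixes. The 5 kappa V probes at the right had medians of -1.65 and -1.565 on the IgM arrays. Untransfected replicate 1 was above replicate 2 in 4 of the 5.

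Among kappa light chain V probes, 92 were on the array, 25 passed the filter, 5 were called higher in IgM cells (20%) and 0 lower. Of all 29140 probes tested, 1.14% were called higher. Of the 25, 9 were kept only through the IgM arrays, 4 of these among the called, so 1 of the 16 probes kept through another line was called. The probe of Igkv12-46 read -2.27 and -6.98 in untransfected cells, 3.76 and 3.91 in IgM cells, -6.91 and -6.52 in clone 18, and -6.56 and -6.84 in clone 41. The difference between IgM and untransfected cells was 8.46 ± 1.30 (adjusted p = 0.0296, limma), the untransfected arrays being 4.71 apart. The probe of Igkv4-90 read -4.31 and -4.44 against -0.14 and -0.09, a difference of 4.26 ± 0.29 (adjusted p = 0.00149), or 19.2-fold. The other 3 called were dim in untransfected cells, namely Igkv4-86 (at least 9.34-fold higher), Igkv9-120 (at least 3.52-fold) and Igkv14-130 (at least 2.22-fold). Igkv12-41 was not called, at -2.92 and -7.19 in untransfected cells against 3.03 and 3.13 in IgM cells (8.13 ± 1.47, adjusted p = 0.0525, limma), nor was Igkv9-124, at -3.14 and -6.78 against -0.55 and -0.49 (4.44 ± 1.92, adjusted p = 0.356). On both the lines did not overlap and untransfected replicate 1 lay above replicate 2. Neither lambda V probe in the fit was called.

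Some V probes with signal in both lines were not called. The heavy V probe of ENSMUST00000103532 read -0.92 and 0.11 in untransfected cells and 1.55 and 2.51 in IgM cells. Its difference of 2.43 was not called (adjusted p = 0.0714, limma), although the lines did not overlap. The bright kappa probe of Igkv1-117 (ENSMUST00000103317) had means of 3.37 in untransfected and 3.51 in IgM cells, a difference of 0.14. Both are printed for comparison with the called probes.
ENSMUST00000103532, chr12:116699334-116699393, minus strand: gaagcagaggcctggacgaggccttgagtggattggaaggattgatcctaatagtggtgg
Igkv1-117, chr6:68071630-68071689, plus strand: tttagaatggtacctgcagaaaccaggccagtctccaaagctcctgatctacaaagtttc

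The mu constant region probe was not called. It read 3.97 and 4.29 in untransfected cells and 4.88 and 4.64 in IgM cells, a difference of 0.63 ± 0.19 (adjusted p = 0.2, limma). The IgE arrays read 3.65, 3.80, 3.93 and 3.94. Both IgM arrays were the highest of the 8, and the untransfected arrays were already bright, so on this probe the lines did not overlap and the difference missed the threshold. Whether the transfected mu gene holds this 60-base window is not given in the sources used here.
Ighm constant region (ENSMUST00000103426), chr12:114659630-114659689, minus strand: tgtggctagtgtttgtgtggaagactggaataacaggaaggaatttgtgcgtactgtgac

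One gamma constant region probe behaved differently from its neighbour in the same transcript. The gamma 1 probe at position 114567263 read -3.26 and -5.75 in untransfected cells against 2.70 and 2.97 in IgM cells, a difference of 7.34 ± 0.77 (adjusted p = 0.0114, limma), and the IgE arrays with a value read -4.62, -4.95 and -6.16. It was well above background on 1 of the 2 untransfected arrays. The gamma 1 probe at position 114568594 read 3.40 and 4.54 against 4.12 and 4.19, a difference of 0.19 ± 0.37 (adjusted p = 0.888). The call of the first was lost without IgM replicate 1 (adjusted p = 0.0561), without IgM replicate 2 (0.0530), with outlier spots kept (0.259), with no filter on dim probes (0.0685) and in a fit of the 4 arrays alone (0.0846), while both IgM arrays stayed above both untransfected ones.
Gamma 1, lower position (ENSMUST00000103420), chr12:114567263-114567322, minus strand: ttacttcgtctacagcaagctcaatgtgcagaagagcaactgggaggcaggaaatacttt
Gamma 1, higher position (ENSMUST00000103420), chr12:114568594-114568653, minus strand: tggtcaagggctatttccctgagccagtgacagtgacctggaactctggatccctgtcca

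The other constant region probes tested were not called. A probe in the same stretch of chromosome 12, listed on the array as a predicted gene (ENSMUST00000103414), read -1.22 and -0.31 in untransfected cells and 0.09 and 1.02 in IgM cells, a difference of 1.32 ± 0.41 (adjusted p = 0.211, limma), and the IgE arrays read -0.13 to 0.49. A lambda constant probe (ENSMUST00000103749) read 4.56 and 5.50 against 5.99 and 6.71, a difference of 1.32 ± 0.37 (adjusted p = 0.166), and 1 of the IgM spots was saturated. A probe of a different lambda constant region (ENSMUST00000103743) differed by 0.87 ± 0.32 (adjusted p = 0.28), and was called without untransfected replicate 2 (1.33, adjusted p = 0.0492). The kappa constant probe of ENSMUST00000103410 differed by 0.08 and the J chain gene Igj (Jchain) by 0.03, both saturated on all 4 arrays, as were the probes BC019489 and AK007918 for the IgG2a heavy chain. Of the receptor's signalling partners, Cd79a differed by 0.07 ± 0.20 and Cd79b by 0.39 ± 0.19 (3 of 4 arrays saturated), neither called.

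The 2 untransfected arrays agreed less well with each other than the arrays of any other line. Over the 17358 genes well above background on all 8 arrays, the SD of their log2 difference was 0.65, against 0.36 for the IgM arrays, 0.32 for clone 18 and 0.37 for clone 41. Across genes, which are not independent replicates, the untransfected arrays correlated with Pearson 0.977 and Spearman 0.977, and the IgM arrays with 0.993 for each. At least 2-fold differences separated the untransfected arrays for 1745 genes (10.1%), of which 814 were higher in replicate 1 and 931 in replicate 2, and 224 of the 1745 were at least 4-fold apart. The IgM arrays were at least 2-fold apart for 391 genes (2.25%). With 1 pair per line no test of this contrast was made.

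The gap was present at all levels of signal. In genes with a mean below -2 the SD of the difference was 0.67 in untransfected and 0.55 in IgM cells. In genes above 4 it was 0.48 and 0.18. The 4 pairings of an untransfected with an IgM array had SDs of 0.59 to 0.64 (0.585, 0.632, 0.641 and 0.632), each below the 0.647 between the untransfected arrays. Counted gene by gene, the mean of the IgM arrays was at least 2-fold from untransfected replicate 1 for 2102 of 19961 genes and from replicate 2 for 2210. It was at least 2-fold from both in the same direction for 900 (593 higher, 307 lower) and in opposite directions for 80.

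**Figure D2:**
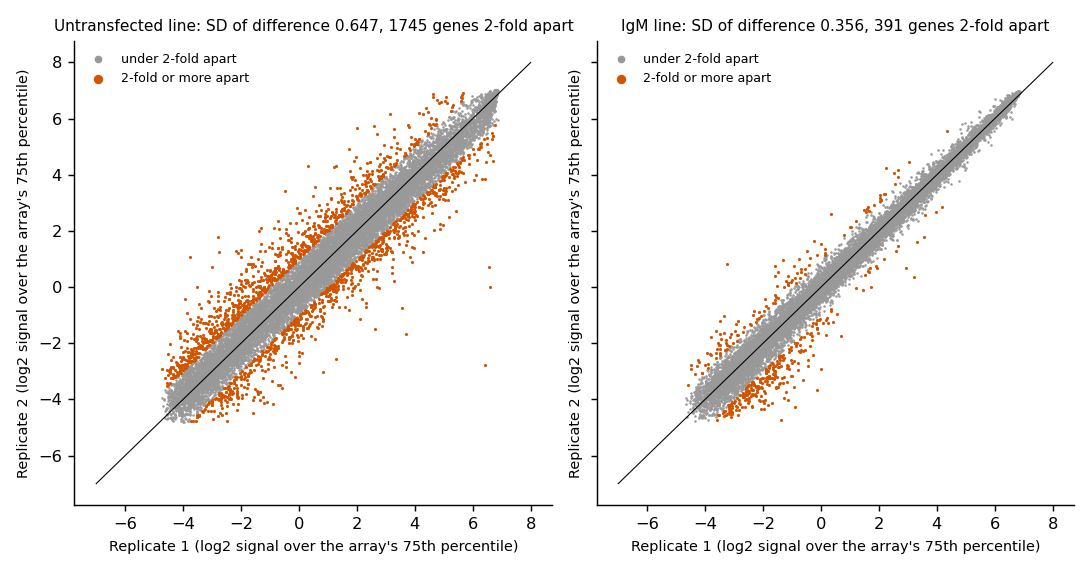
Scaled log2 signal of 17358 genes on replicate 1 (horizontal axis) and replicate 2 (vertical axis) of the untransfected line (left) and the IgM line (right); each point is a gene, and orange points are at least 2-fold apart. The untransfected panel holds 1745 orange points and the IgM panel 391.

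Named genes show what separated the 2 untransfected arrays. Erlin2, an endoplasmic reticulum membrane protein of lipid regulation, read 6.58 in replicate 1 (saturated) and 0.71 in replicate 2, where the IgM arrays read 0.67 and 0.41. Clca3 (Clca1), a secreted channel regulator, read 3.70 and -1.66, and Sema7a, a membrane-anchored semaphorin, read 3.57 and -0.76. Egr1, the immediate early transcription factor, read 1.28 and -2.57 against 3.01 and 2.12 in IgM cells, so its difference of 3.21 ± 1.13 was not called (adjusted p = 0.263, limma). In these 4 replicate 1 was the higher array, as it was for Pik3r6 (2.62 and -1.48) and Ptgir (-0.62 and -4.61). In the opposite direction, Ddit3, the stress-induced factor CHOP, read 0.30 and 4.31. Arid5b read -2.79 and 1.77, Soat2, a cholesterol esterifying enzyme, -3.38 and 1.97, and the nuclease gene Dnase1l3 -3.76 and 1.07. Proca1 (-3.88 and 0.55) and Tmem140 (-2.75 and 1.26) also stood higher in replicate 2. None of these 12 genes, chosen for the gap between the untransfected arrays, was called between the lines.

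Cholesterol synthesis was the list on which the untransfected arrays parted most. Its 32 measured genes had a median difference of 1.51 between untransfected replicate 1 and replicate 2, against -0.02 over all genes, and 23 of the 32 were at least 2-fold apart. Hmgcs1, an early enzyme of the pathway, read 6.46 and 4.46 in untransfected cells and 5.28 and 5.40 in IgM cells. The desaturase gene Scd1 read 4.97 and 2.20 against 3.82 and 3.23. For both genes the IgM arrays lay between the 2 untransfected arrays. The median of the list was -0.84 against replicate 1 and 0.67 against replicate 2, and 0 of the 32 genes were called (3 without untransfected replicate 1 and 1 without untransfected replicate 2).

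IgM cells differed from untransfected cells by 406 of 19973 genes (2.03%), 244 higher (1.22%) and 162 lower (0.811%). Without adjustment 2902 genes had p under 0.05. Among the 244 higher, 80 differed by 2- to 4-fold, 104 by 4- to 16-fold and 60 by at least 16-fold, with a median of 6.56-fold. Of the 244, 112 were well above background on both IgM arrays and on neither untransfected array. Among the 162 lower the numbers were 68, 69 and 25 with a median of 5.08-fold, and 41 were not well above background on either IgM array. In each of the 406 the gap between the lines exceeded the difference between the 2 untransfected arrays. The call favours this, since its test uses that difference as part of the spread. The untransfected arrays were at least 2-fold apart in 38 of the 244 and 22 of the 162. Over all genes the IgM arrays both lay above both untransfected arrays for 21.2% and both below for 19.9%.

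The balance of the 2 directions depended on which genes were counted. Genes with a symbol in the reference gave 131 higher and 143 lower of 13495, those without one 113 higher and 19 lower of 6478, which include V-region transcripts and lincRNA regions (33 higher and 9 lower of 2845 in the latter). Restricted to genes with a symbol that were well above background and unsaturated on all 4 arrays, 62 were higher and 101 lower of 11976. Scaling each array by its median in place of its 75th percentile moved the median of all genes from 0.01 to -0.42 and gave 355 higher and 802 lower. In a fit of the 4 arrays of the pair alone, without the IgE arrays, 100 genes were called, 69 higher and 31 lower. Leaving out 1 array in turn gave 882 called without untransfected replicate 1, 648 without replicate 2, 260 without IgM replicate 1 and 306 without IgM replicate 2, and 175 of the 406 were called in each of these fits as well (110 higher, 65 lower, 27 of them V-region genes).

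For scale, the same fit called 1536 genes between clone 18 and untransfected cells, 1119 between clone 41 and untransfected cells, 1826 between clone 18 and IgM cells, 1476 between clone 41 and IgM cells and 71 between the 2 clones. These comparisons share arrays with the one described here, and the counts are not independent. By chromosome, 5.93% of 792 genes on chromosome 12 were called (38 higher, 9 lower), the 38 falling to 6 without the V-region probes. Chromosome 10 had 3.71% of 916 genes called, 10 higher and 24 lower. Chromosome 1 had a median difference of 0.23, where the other autosomes lay between -0.05 and 0.03.

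**Figure D3:**
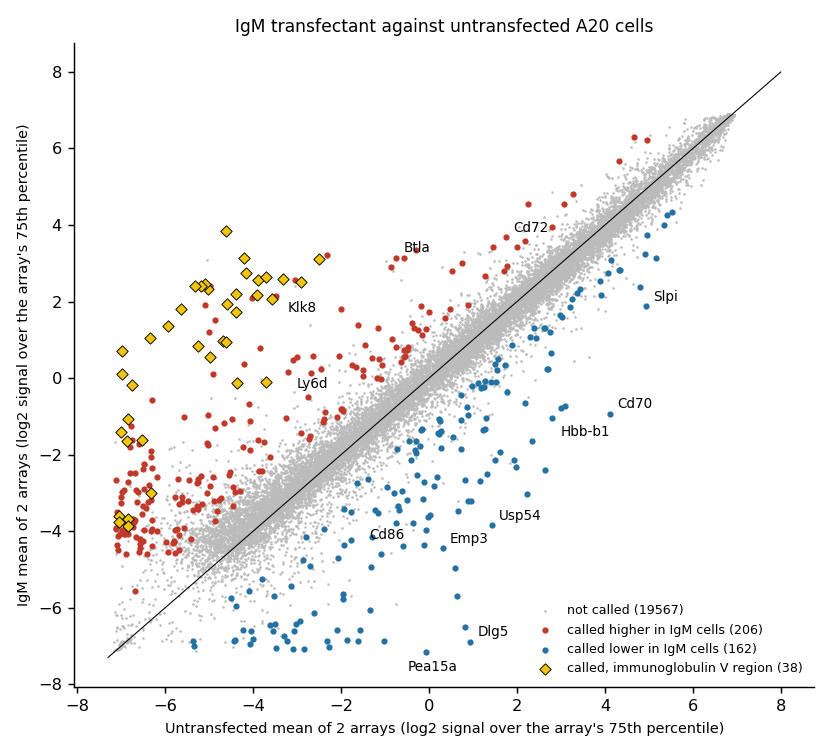
Mean scaled log2 signal of each of 19973 genes in untransfected cells (horizontal axis) and IgM cells (vertical axis), each the mean of 2 arrays; the line marks equal signal. Of the 244 genes called higher, 38 V-region genes (yellow diamonds) reach differences above 7, and the 162 called lower (blue) include Dlg5, Pea15a, Cd86 and Cd70.

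Btla, an inhibitory receptor of lymphocytes, read -0.20 and -1.29 in untransfected cells and 3.27 and 3.03 in IgM cells, a difference of 3.89 ± 0.35 (adjusted p = 0.0035, limma). Cd72, an inhibitory co-receptor of the B cell receptor, read 1.76 and 1.74 against 3.52 and 3.85, a difference of 1.94 ± 0.18 (adjusted p = 0.00428), and its other probe differed by 1.91 and was called too. Both IgM arrays lay above both untransfected arrays in each. The IgE arrays read 2.60 to 3.32 on Btla, near the IgM arrays, and 1.16 to 1.88 on Cd72, near or below the untransfected arrays. Both calls were lost in the fit of the 4 arrays alone (adjusted p = 0.0702 for Btla and 0.0732 for Cd72).

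Cd86, a ligand that co-stimulates T cells through CD28, fell from 0.10 and -0.34 in untransfected cells to -4.42 and -4.30 in IgM cells, a difference of -4.24 ± 0.20 (adjusted p = 0.000478, limma). The IgE arrays read -0.85 to -0.59, close to untransfected cells. Cd80, the other CD28 ligand, differed by -0.15 ± 0.18 (adjusted p = 0.79, limma) on its brightest probe. Its other probe differed by -1.42 and was not called. Cd70, the TNF family ligand of CD27, read 5.40 and 2.85 against -0.53 and -1.32, a difference of -5.05 ± 0.75 (adjusted p = 0.0244), and the IgE arrays read -6.91 to -6.57. The untransfected arrays were 2.55 apart on Cd70, and the call was lost without IgM replicate 1 (adjusted p = 0.0758), without IgM replicate 2 (0.1) and in the 4-array fit (0.187).

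The MHC class II and co-stimulation list had 21 measured genes, 0 called higher and 2 lower (Cd86 and Cd70), where 0.811% of all genes were called lower, with a median of -0.72 against 0.01 over all genes. The median was -1.07 against untransfected replicate 1 and -0.57 against replicate 2, so it was below 0 with either array. Tnfsf9, the 4-1BB ligand, read 4.85 and 3.15 against 1.79 and 1.71 (a difference of -2.24, adjusted p = 0.0939), and H2-DMb1, a chain of the peptide editor DM, differed by -1.20 (adjusted p = 0.0972). H2-Aa, a class II chain, differed by -1.03 (adjusted p = 0.328), Cd74, the invariant chain, by 0.03, and Cd274, the ligand PD-L1, by 0.38. The number called was 7 without untransfected replicate 2, 3 without untransfected replicate 1, 1 without either IgM array and 10 under median scaling. The cytokine and TNF family list had 28 measured genes, 0 called higher and 1 lower (Cd70), with a median of -0.51, and the MHC class I list had 0 of 19 called with a median of -0.27.

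The list of B cell receptor signalling and co-receptor genes had 36 measured, 1 called higher (Cd72) and 0 lower, where 2.03% of all genes were called, with a median of 0.03. Against untransfected replicate 1 the median was -0.16 and against replicate 2 it was 0.29, since the 2 untransfected arrays were 0.48 apart on it. Ms4a1 (CD20) differed by 0.59 ± 0.43, Ptprc (CD45) by 0.35 ± 0.28 and Fcgr2b, the inhibitory IgG receptor, by 0.04 ± 0.19, none of them called. Fcer2a, the low-affinity IgE receptor CD23, read 0.84 and -0.70 against -1.82 and -2.51, a difference of -2.23 ± 0.59 that was not called (adjusted p = 0.145, limma), although the lines did not overlap. Fcer1g, a signalling chain of Fc receptors, differed by 0.14 ± 0.15.

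Of 32 measured mature and germinal centre genes 1 was higher (Btla) and 0 lower, against 2.03% called over all genes, with a median of 0.29, and the untransfected arrays were 0.68 apart on this list. Pax5, which maintains B cell identity, differed by 0.31 ± 0.29, Bcl6, the germinal centre repressor, by 0.36 ± 0.17 (2 of 4 arrays saturated), Prdm1, the plasma cell regulator, by 0.06 ± 0.82 and Xbp1, which drives secretion, by 0.10 ± 0.22. Irf4 read 3.29 and 1.98 against 1.05 and 0.59, a difference of -1.82 ± 0.43 that missed the threshold (adjusted p = 0.109, limma), with no overlap of the lines. Of 20 plasma cell genes 1 was higher and 1 lower, with a median of -0.05. The higher was Ly6d, a lymphoid surface antigen, at -3.10 and -3.32 against 0.31 and 0.02 (3.37 ± 0.18, adjusted p = 0.000649). The lower was Slpi, a secreted inhibitor of leukocyte proteases, at 5.31 and 4.56 against 1.66 and 2.10 (-3.05 ± 0.33, adjusted p = 0.00664), and the IgE arrays read -2.73 to -1.40 on it.

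Among all genes with a symbol measured on all 4 arrays, the highest difference was that of Klk8, a secreted serine protease. It read -3.66 and -3.28 in untransfected cells and 2.04 and 2.25 in IgM cells, a difference of 5.62 ± 0.20 (adjusted p = 0.000123, limma), or 49.1-fold. The IgE arrays read -6.81 to -5.92, so only the IgM arrays were above the 75th percentile. Dmd, which encodes dystrophin, read -3.56 and -4.13 against 1.25 and 0.35 (4.64 ± 0.33, adjusted p = 0.00171), and its other 2 probes were called higher as well. Rorb, an orphan nuclear receptor, differed by 4.59 ± 0.33 and the zinc finger gene Zfp358 by 3.55 ± 0.26. Zfp358 read 0.56 to 0.95 on the IgE arrays, near the IgM arrays (0.24 and 0.68). Aldh1a2, which makes retinoic acid, differed by 2.96 ± 0.37, a call lost without IgM replicate 1 (adjusted p = 0.0695). Rasgef1a differed by 3.57 ± 0.49, lost without IgM replicate 2 (adjusted p = 0.0805).

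The rest of that group were A630095E13Rik (Pate14), 1700008I05Rik (Tcp11x2), Pabpn1l and Mup19, with differences of 2.82 to 3.43. Genes dim on both untransfected arrays have a lower bound in place of a fold. Cd3g, a chain of the T cell receptor complex, was at least 13.9-fold higher in IgM cells, and Art1, an ADP-ribosyltransferase, at least 8.22-fold. Ttbk1 was at least 8.86-fold higher and the phosphatase gene Ptprr at least 5.58-fold. Cd3g, Art1 and Ptprr were well above background on the 2 IgM arrays only. They passed the filter through that line alone, which favours a call of higher. Cd3g read -1.39 and -0.62 on the IgM arrays and was not well above background in untransfected cells. Its call was lost in the fit of the 4 arrays alone (adjusted p = 0.096, limma). Cd3e, another chain of that complex, read -0.29 and -0.30 against -0.77 and -0.29 and was not called.

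Interferon-inducible genes gave a mixed picture. Ifitm2, an antiviral membrane protein, read -1.93 and -2.09 in untransfected cells and 1.77 and 1.84 in IgM cells, a difference of 3.82 ± 0.49 (adjusted p = 0.0142, limma), lost without IgM replicate 1 (0.0695) and without IgM replicate 2 (0.0647). Ifi27l1 (Ifi27) read -0.87 and 0.27 against 3.40 and 3.31, a difference of 3.66 ± 0.65 (adjusted p = 0.0473), lost without untransfected replicate 1 (0.0815), IgM replicate 1 (0.188) or IgM replicate 2 (0.142). The type I interferon list of 30 measured genes had 1 higher (Ifi27l1), 0 lower and a median of 0.36. Over all genes 1.22% were called higher. With the alternatives 0 to 5 of the list were called. Its untransfected arrays were -0.50 apart, and under median scaling its median was -0.07 where that of all genes was -0.42. Gbp3, Ifit1, Xaf1 and Usp18 differed by 2.05, 1.73, 1.20 and 1.22 with adjusted p of 0.0786, 0.0724, 0.0629 and 0.092, and Ddx58, which encodes the RNA sensor RIG-I, by -2.58 (adjusted p = 0.103).

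The genes that fell furthest with signal on all 4 arrays covered several functions. Usp54, a member of the ubiquitin protease family, read 1.39 and 1.48 in untransfected cells and -3.62 and -4.06 in IgM cells, a difference of -5.28 ± 0.20 (adjusted p = 0.000159, limma), while its other probe differed by -1.98 and was not called. Emp3, a membrane protein, read 0.60 and 0.02 against -4.45 and -4.43 (-4.75 ± 0.23, adjusted p = 0.000478), and the IgE arrays read 1.96 to 2.28. Gpr132, a G protein-coupled receptor of lymphocytes, read 2.65 and 2.61 against -3.12 and -1.68 (-5.03 ± 0.45, adjusted p = 0.00344). In each both IgM arrays lay more than 3 log2 units below both untransfected arrays. On Emp3 the IgM line stood alone, and on Usp54 and Gpr132 the IgE arrays were low too, at -3.30 to -3.09 and -3.35 to -2.79.

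Others in that group were Pipox, a peroxisomal oxidase (-4.07 ± 0.36), Usp11, a ubiquitin protease (-3.99 ± 0.28), Rbpms, an RNA-binding protein (-3.90 ± 0.36), and Mbp, known for its product in myelin (-4.09 ± 0.32, with other probes from -2.34 to 0.27). Cpne1 fell by 3.84 while its other probe differed by -0.26. Timd2 differed by -4.30 ± 0.57, a call lost without IgM replicate 2 (adjusted p = 0.0688, limma). Slamf9 differed by -4.14 ± 0.70, lost without IgM replicate 1 (0.0564) and IgM replicate 2 (0.131). Avil differed by -4.15 ± 0.65, lost without untransfected replicate 1 (0.0502) and replicate 2 (0.0733), and Nlrp4f by -5.28 ± 0.83, lost without untransfected replicate 1 (0.0569), replicate 2 (0.0699) and IgM replicate 2 (0.103).

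Several genes present in untransfected cells were not well above background on either IgM array. Dlg5, a scaffold protein of cell polarity, read 0.79 and 1.08 in untransfected cells and -6.79 and -6.99 in IgM cells, at least 54.05-fold lower (adjusted p = 3.95e-05, limma). Pea15a, a small death effector domain protein, read -0.02 and -0.14 against -7.10 and -7.19, at least 26.75-fold lower (adjusted p = 2.6e-05). The IgE arrays read 0.41 to 0.58 on Pea15a, and 0.25 and 0.26 in clone 41 but -2.41 and -2.04 in clone 18 on Dlg5. Gng3, a G protein subunit, was at least 42.65-fold lower and Pnoc, the nociceptin precursor, at least 13.97-fold lower. Defb19, a defensin, and Adm2, a peptide hormone, had bounds of 49.57-fold and 44.05-fold, with the untransfected arrays 2.24 and 2.26 apart.

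**Figure D4:**
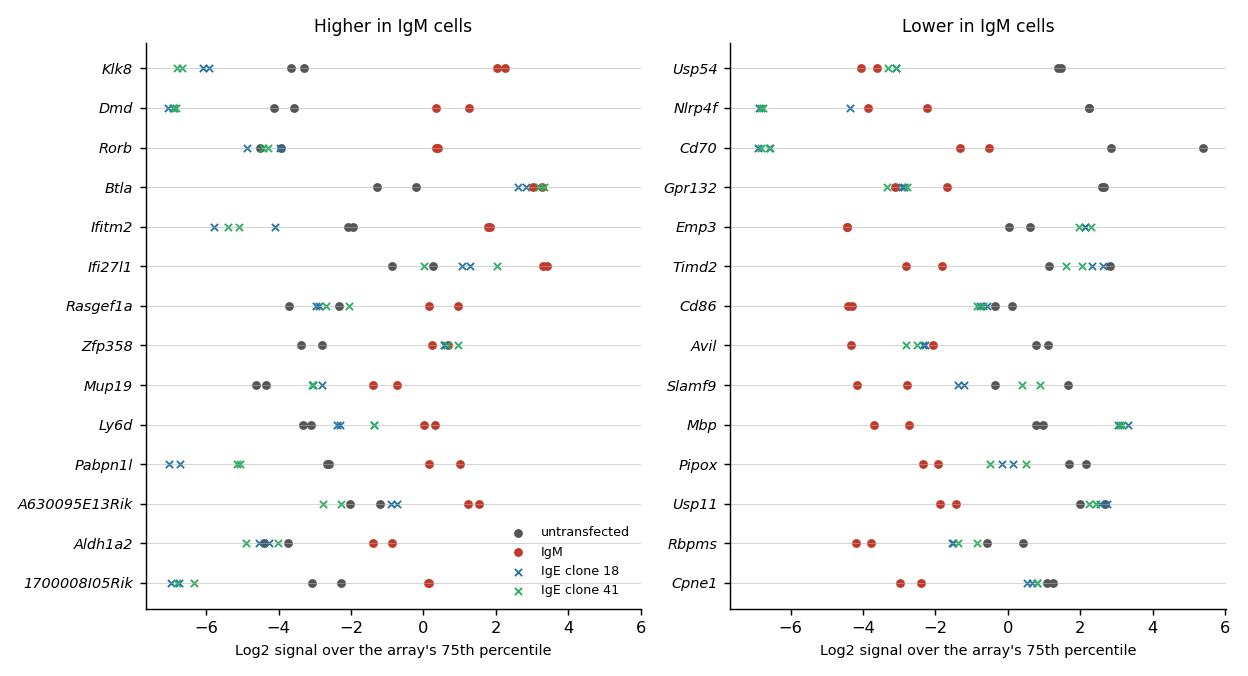
Scaled log2 signal (horizontal axis) of the 14 genes with the largest differences in each direction among genes with a symbol measured on all 4 arrays, 1 gene per row; each point is an array, circles for untransfected (grey) and IgM (red) cells and crosses for IgE clones 18 (blue) and 41 (green). Grey and red circles do not overlap in any row, which the choice of genes fixes, while the crosses lie with the red circles for Btla and Zfp358 and with the grey ones for Cd86 and Rorb.

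Stress and metabolic lists were read against each untransfected array. Their counts are to be read against 0.811% of all genes called lower. The amino acid stress list, targets of the factor ATF4, had 29 measured genes, 0 higher, 1 lower (Slc7a5, a leucine transporter chain) and a median of -0.70. That median was -0.26 against untransfected replicate 1 and -1.09 against replicate 2. Without untransfected replicate 1 it had 11 called, without untransfected replicate 2 0, and without either IgM array 0. Trib3 read 3.14 and 6.15 in untransfected cells and 3.31 and 1.59 in IgM cells, and Chac1 read 3.88 and 5.10 against 3.01 and 2.22 (-1.88 ± 0.43, adjusted p = 0.105, limma). Slc7a5 read 3.16 and 3.55 against 2.30 and 2.16 (-1.13 ± 0.19, adjusted p = 0.039, limma). This call was lost without untransfected replicate 2, IgM replicate 1 or IgM replicate 2. The other probe of Slc7a5 differed by -0.90 and was not called.

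The unfolded protein response and secretion list had the same shape, with 0 of 35 called, a median of -0.56, and medians of -0.24 and -0.83 against untransfected replicates 1 and 2. Without untransfected replicate 1, 7 of the 35 were called. Herpud1, an endoplasmic reticulum stress gene, read 4.91 and 6.57 against 4.88 and 4.30, and Ern1, which encodes the stress sensor IRE1, -1.67 and 1.08 against -1.70 and -1.71. On Trib3, Herpud1 and Ern1 the untransfected array that stood apart was replicate 2. Glycolysis and hypoxia genes had a median of -0.07 and 1 of 34 lower, where 0.811% of all genes were called lower. The 1 was Pfkp, a phosphofructokinase, at -1.44 ± 0.24 (adjusted p = 0.0395, limma), while its other probe differed by -0.23 and was not called. Leaving out any of the 4 arrays ended the call of Pfkp.

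Lists of growth, death and structure are given by their counts, which are to be read against the 2.03% called over all genes. The numbers called were 1 of 39 cell cycle genes (Cdkn2c, an inhibitor of cyclin-dependent kinases, at 1.29 ± 0.20), 0 of 24 pro-apoptotic, 0 of 15 anti-apoptotic and 0 of 18 p53 target genes, with medians of 0.13, -0.05, -0.10 and 0.18. Bcl2l11, which encodes the cell death protein BIM, differed by 0.70 ± 0.42 (adjusted p = 0.512, limma). Of 53 actin and motility genes 1 was higher (Tmsb10, an actin-binding peptide, at 1.36 ± 0.18), and of 30 adhesion and positioning receptors 2 were higher (Rgs18, at least 4.12-fold, and Itgb3, an integrin chain, at 1.48 ± 0.26) and 1 lower (Plxnd1, a semaphorin receptor, at -1.62 ± 0.20). Of 19 NF-kB targets 1 was lower (Ccl5, a chemokine, at -2.36 ± 0.39), and 0 of 25 immediate early genes were called. Of 41 clustered histone genes 1 was higher (Hist1h3i, now H3c11) and 1 lower (Hist3h2ba, now H2bu2), with a median of 0.28 that became -0.15 under median scaling. Of 25 housekeeping and ribosomal genes 0 were called, and 18 of these were saturated.

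Several of these single calls were lost when 1 array was left out. Cdkn2c, Itgb3, Hist1h3i and Ccl5 were not called without untransfected replicate 2 (adjusted p of 0.065, 0.0718, 0.0747 and 0.0733, limma), IgM replicate 1 (0.162, 0.212, 0.196 and 0.127) or IgM replicate 2 (0.118, 0.118, 0.0855 and 0.138). Tmsb10 and Plxnd1 were not called without IgM replicate 2 (0.0796 and 0.0602), and Rgs18 was not called without IgM replicate 1 (0.0532). Of the 55 called genes named by the rule, 36 were called without each of the 4 arrays and 19 were not, and 20 of the 55 were called in the fit of the 4 arrays alone. All 55 kept their direction in these fits.

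**Figure D5:**
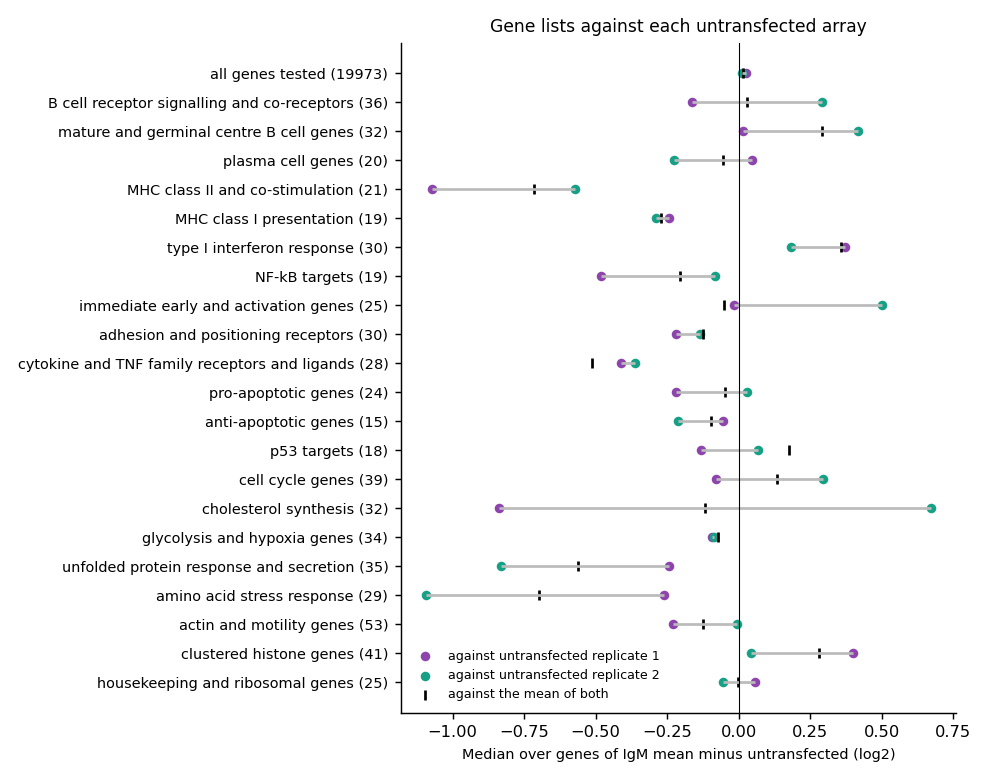
Median over the genes of a list of the IgM mean minus untransfected signal (log2, horizontal axis), against untransfected replicate 1 (purple), replicate 2 (green) and their mean (black tick), for all genes and 21 lists with the number of genes measured in parentheses. The cholesterol list runs from -0.84 to 0.67 depending on the untransfected array, while the MHC class II and co-stimulation list stays below 0 with either.

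Markers of other cell types were partly detected on the 4 arrays. The counts called are to be read against 1.22% of all genes called higher and 0.811% called lower. Of 20 listed myeloid markers, 19 were on the array and 12 were detected, 0 of 10 tested were called, and the summed linear signal was 163 and 181 in untransfected cells and 168 and 184 in IgM cells, carried mainly by Csf3r (6.86 and 6.99 against 6.82 and 6.95) and Itgam (5.14 and 5.46 against 5.60 and 5.75). Cd14, Lyz2, S100a8, S100a9 and Itgax were not detected, and Emr1 differed by -2.76 (adjusted p = 0.0588, limma). Of 18 listed T cell markers, 17 were on the array and 12 were detected on at least 1 of the 4 arrays; Cd8a, Thy1, Bcl11b, Gata3 and Icos were not, 1 of 11 tested was called (Cd3g) and the summed linear signal was 11.8 and 18.7 in untransfected cells and 16.6 and 16.5 in IgM cells. Of 14 listed erythroid markers, 12 were on the array and 8 were detected, and 2 of 7 tested were called lower. These were the beta globin genes Hbb-b1 (Hbb-bt), at 3.44 and 2.15 against -1.16 and -0.91 (-3.83 ± 0.40, adjusted p = 0.00617, limma), and Hbb-b2 (-3.81 ± 0.40), near-identical copies that these probes may not tell apart. Both beta globin calls were lost in the fit of the 4 arrays alone (adjusted p = 0.091 and 0.093, limma). The alpha globin gene Hba-a2 read 1.30 and 2.05 against 1.60 and 1.71, and Gata1, Alas2 and Ahsp were not detected. The summed erythroid signal was 28.4 and 16.5 in untransfected cells and 11.5 and 12.3 in IgM cells. Of 8 stromal and epithelial genes tested 1 was higher (Krt8, at least 3.28-fold, lost without untransfected replicate 1 at adjusted p = 0.0697, IgM replicate 1 at 0.155 or IgM replicate 2 at 0.131), and of 3 NK and 1 mast cell gene tested 0 were called. Cd3g and Krt8 passed the filter through the IgM arrays alone, which favours a call of higher. In RNA from whole cultures, fewer cells of a kind and less RNA per cell cannot be told apart, and the part of other cells in these results was not tested.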

How the data were processed

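Per the file headers, the 8 arrays (Agilent design 028005, mm9) lay on 1 slide with 1 scan and were read with Feature Extraction 10.7.3.1, which gave the deposited processed intensity, background-subtracted and detrended but not normalized between arrays. The authors' deposited log2 value table ranked probes as the median pixel intensity did (Spearman 1), with column medians of 6.04 to 6.05; how it was scaled and centred is not given in the sources used here. Each line filled a slide column, so column and line cannot be told apart.

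Control spots and outlier spots were left out, log2 intensity was scaled to each array's 75th percentile, and probes well above background on both arrays of a line were kept (29140 of 55681; 19973 genes by brightest probe, 21 with a missing value). With limma 3.58.1 (R 4.3.3), 1 mean was estimated for each line from all 8 arrays, on 4 residual degrees of freedom and a prior of 2.66, with two-sided tests adjusted over all features. V and constant region probes were tested each as its own feature. A fold against a line not well above background on either array is a bound, set against the dim probe or, if higher, the dimmest signal called well above background there (log2 -4.90 to -4.63).

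Genes were named by rule: the 14 largest called per direction with a symbol, measured on all 4 arrays; up to 6 per direction by bound; up to 4 called members of each of 28 lists; the 6 per direction most apart between the untransfected arrays; and fixed immunoglobulin and B cell genes. The members and lists were chosen with earlier results of these data known. Symbols are those of the array, with the current symbol of GRCm38.p6 in parentheses (13495 genes matched). The number of arrays limits precision. No 2 arrays held identical values, and the fit was tested on simulated data. The alternatives were normexp with an offset of 50, quantile or median scaling, the authors' log2 table, other filters, every probe as a feature, adjusted p alone, outlier spots kept, the 4 arrays alone, trend and robust priors, a replicate block and each array left out. Some items are not reported here.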

Additional observations from a re-analysis of the deposited data

How the results depend on the processing

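The count of 406 genes (244 higher, 162 lower) and of 39 V-region probes moved with the arrays, the scaling and the filter. Leaving out 1 of the 4 arrays in turn gave 260 to 882 called (154 to 465 higher, 87 to 417 lower) and 30 to 40 V-region probes. The 4 arrays alone gave 100 (69 higher, 31 lower, 24 V-region probes), of which 95 were among the 406. Median scaling gave 1157, of them 802 lower, with 343 of the 406 among them. The authors' value table gave 161 (91 higher, 70 lower), no filter on dim probes 229 (151 higher, 78 lower, 24 V-region probes), and the filter of well above background on all 4 arrays 200 (90 higher, 11 V-region probes), which by its construction drops genes dim in either line. Normexp (360), quantile normalization (338), trend and robust priors (425), outlier spots kept (406), adjusted p alone (423) and every probe as its own feature (531) stayed within 1.5 times. Normexp shared 257 calls with the 406 and quantile normalization 304. The cause of the other shifts was not tested. The SD between the untransfected arrays was 0.56 to 0.64 with normexp, quantile normalization or the authors' table, and 0.893 with no filter on dim probes. Among named genes and constant region probes, none changed sign while called. Of the 406, 405 kept their sign with the authors' value table. The median of all genes changed sign under median scaling. Some list medians changed sign too. That of cholesterol synthesis was -0.12 in the main fit and 0.67 without untransfected replicate 1.

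Replicate numbers were shared between lines and went with the slide row. The correlation of same-numbered arrays' deviations was 0.15 for untransfected with IgM and -0.06 to 0.36 over all pairs of lines, not above 0.1 in every pair, so the numbers were not taken to pair the arrays. With replicate block 411 genes were called (250 higher, 161 lower, 40 V-region probes), 352 of them among the 406. Of the genes named, 5 called without the block were not called with it (adjusted p of 0.0731 for Itgb3, 0.0573 for Nlrp4f, 0.072 for Slamf9, 0.054 for Ccl5 and 0.0634 for Slc7a5). Slide and scan as a block were not run, since there was 1 of each.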

Other observations

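Major urinary protein (Mup) genes, a cluster of close copies on chromosome 4 best known from mouse liver, were looked at after their values were seen. Of 17 probes on the array 7 passed the filter, and 4 of these were called higher in IgM cells and 0 lower, where 1.14% of all probes tested were called higher. Mup19 read -4.34 and -4.63 in untransfected cells and -1.39 and -0.74 in IgM cells, a difference of 3.43 ± 0.25 (adjusted p = 0.00184 over probes, limma). Mup4 differed by 2.19 ± 0.35 (adjusted p = 0.0333). Mup9 and LOC100048884 (Mup18) were not well above background in untransfected cells and were at least 5.95-fold and at least 6.80-fold higher. Mup2, Mup20 and Mup17 were not called, with differences of 0.12, 1.25 and 1.23. The IgE arrays read -3.07 to -2.80 on Mup19, between the untransfected and the IgM arrays. The copies are near-identical, so the probes may not tell them apart.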
